A study of Macaca fascicularis with 2 samples.

Results

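Matrix Gla protein (*MGP*) and 7 other genes that set how readily a matrix mineralizes were followed in single cells of cynomolgus monkey cartilage and disc. The 8 genes were taken by name: the Gla proteins *MGP* and *GAS6*, the pyrophosphate genes *ENPP1* and *ANKH*, the phosphatases *ALPL* and *PHOSPHO1*, and the acidic phosphoproteins *SPP1* and *IBSP*. All 8 were present among 21371 genes in the count matrix, of which 17688 had a read. The cells came from articular cartilage (AC) and nucleus pulposus (NP) of wild type male *Macaca fascicularis*, 3 years old, and no cell was treated. They were sequenced as 1 pooled library by TAS-seq, a whole-transcriptome method on barcoded beads, after each tissue sample had been marked with a sample tag. The labels name 3 tissue samples (AC3, NP3 and AC4), the cells carry 4 tags (A951 to A954), and no source used here pairs a tag with a tissue or an animal, so results are given by tag and not by tissue.

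Cartilage stays unmineralized although its fluid holds enough calcium and phosphate to precipitate. MGP binds mineral and BMP ligands after vitamin K-dependent carboxylation, ENPP1 makes the inhibitor pyrophosphate outside the cell and ANKH exports it or its precursor ATP, and ALPL and PHOSPHO1 release phosphate and so oppose them. In calcified cartilage and in degenerating discs this balance is known to shift, which makes these genes of interest in the disc, where notochordal cells (NCs, remnants of the embryonic notochord) lie among chondrocyte-like cells.

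After removal of doublets, untagged cells and cells outside the quality limits, 5653 cells were left. Cells with 5 or more reads of *KRT19* and 5 or more of *TBXT*, a keratin and the notochord transcription factor, were taken as NCs. This gave 310 NCs, 5.48% of the cells, and 5343 other cells. By tag, the NCs numbered 67 in A951, 236 in A952, 5 in A953 and 2 in A954, against 928, 889, 1372 and 2154 other cells. The median depth was 186370 reads per NC and 199072 per other cell, and the range over all cells was 24907 to 1290096 reads. Of the other notochord markers, *CDH2* (120 rpm, reads of the gene in 1000000 reads, in NCs against 1.16 in other cells), *NCAM1* (506 against 25.2), *SHH* (98.7 against 0.847) and *CA12* (52.6 against 5.38) were higher in NCs, whereas *FOXA2* was not (0.908 against 5.46), and *KRT8*, *KRT18* and *CD24* were not among the genes counted. A further 94 of the other cells had *KRT19* and *TBXT* reads that added to 5 or more without passing both limits.

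Levels are pooled rpm unless stated otherwise: the reads of a gene over all cells of a class, divided by all reads of those cells and scaled to 1000000. Genes differ in length, so levels are compared between cells and not between genes. Where reads of different genes are set against each other within a cell, only the share of such cells is compared, between classes or tags. The animals and tissues cannot be assigned to tags, so no replicates could be formed and no test was run. A difference of 2-fold or more in pooled rpm is given as a description, with the share of all 10926 genes at 1 rpm or more that passed it. Intervals are 95% and exact (Clopper-Pearson for shares, Poisson for pooled rpm). The reads carry no molecular identifiers, so intervals cover counting error only.

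NCs held far less *MGP* than the other cells. The pooled level was 438 rpm in NCs (Poisson interval 433 to 443) and 7008 rpm in other cells (7004 to 7013), 16.0-fold lower (log2 ratio -4.00). The size depends on which cells are counted: the log2 ratio was -1.82 with *KRT19* and *TBXT* reads added together to choose NCs, and -2.41 without A952. In other cells the level was 4783 rpm in A951, 4875 in A952, 10626 in A953 and 6351 in A954. In NCs it was 340 rpm in A951, 167 in A952, 7151 in A953 and 30.4 in A954. Within the 2 tags that held more than 20 NCs, the NC level was thus below that of other cells by 14.1-fold in A951 and by 29.2-fold in A952. The 5 NCs of A953 stood apart from this pattern.

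The pooled NC value overstated the level of a typical NC, because a few cells held most of the reads. The median over cells was 52.2 rpm in NCs (quartiles 37.0 and 85.5) and 4388 rpm in other cells (quartiles 1855 and 9144), an 84.1-fold difference over all tags. Within tags, where the mix of tags does not enter, the medians differed by 57.1-fold in A951 and 62.0-fold in A952. Of the 310 NCs, 303 lay below the lower quartile of the other cells and 3 lay above their median. Those 3 cells all carried tag A953. They had a median of 494207 reads and 6612 genes, against 186281 reads and 4014 genes in the remaining 307 NCs. Their pooled cartilage transcripts also stood above those of the remaining NCs, with a pooled *COL2A1* of 6335 rpm against 1173, *BGN* of 4262 against 1068 and *DCN* of 1288 against 148, while *KRT19* was 178 rpm against 1115 and *TBXT* 556 rpm against 897. This was not so in each of the 3 cells, since *COL2A1* ran from 345 to 13936 rpm and *BGN* from 184 to 6845 rpm. Whether they held RNA of more than 1 cell was not tested. Without them the log2 ratio of *MGP* was -5.00.

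Almost every NC had some *MGP* reads, and their level was set beside that of chondrocyte transcripts. A read of *MGP* was found in 99.4% of NCs (97.7 to 99.9%) and 99.9% of other cells, and 5 or more reads in 82.6% of NCs (77.9 to 86.6%). Collagen II (*COL2A1*), biglycan (*BGN*), chondroadherin (*CHAD*) and decorin (*DCN*) are chondrocyte transcripts that were abundant in the other cells. Their NC medians were at 2.32%, 2.41%, 1.97% and 2.56% of the other-cell medians. The *MGP* median in NCs was at 1.19%, below all 4. Within A952 it was at 1.61%, again below all 4 (1.82% for *CHAD* and 1.84% for *COL2A1*), but within A951 it was at 1.75%, above *CHAD* at 1.70%. Whether the reads of these genes in NCs were stray was not tested. Not every matrix gene behaved so: the NC median was at 144% of the other-cell median for fibromodulin (*FMOD*) and at 289% for aggrecan (*ACAN*).

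**Figure D1:**
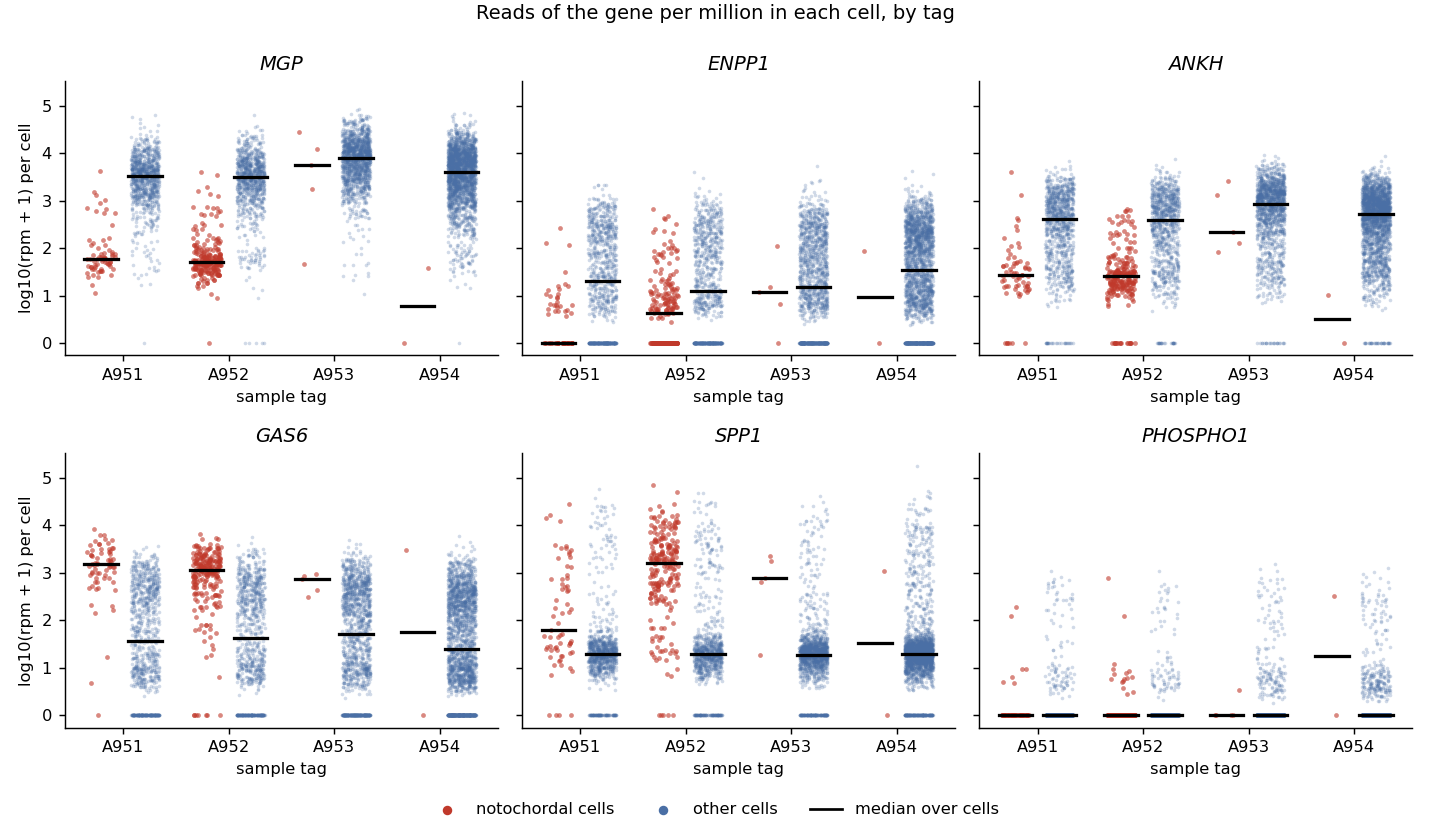
Level of 6 of the 8 genes in each cell, as log10(rpm + 1), by sample tag. Each point is a cell (red, NCs; blue, other cells) and the black bar is the median over cells. In tags A951 and A952 the NC medians of *MGP* (58.5 and 50.6 rpm) lie below nearly all other cells, and those of *GAS6* (1523 and 1128 rpm) lie above most of them.

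*GAS6*, the second Gla protein and the ligand of the TAM receptor kinases, ran the opposite way. Its pooled level was 1376 rpm in NCs and 234 rpm in other cells, 5.88-fold higher (log2 ratio 2.56). In NCs it was 1746 rpm in A951, 1313 in A952, 686 in A953 and 2563 in A954. In other cells it was 263, 285, 270 and 186 rpm in the same order, so the pooled level of NCs was above that of other cells in all 4 tags. In A953 and A954 this rests on 5 and 2 NCs, and only 1 of the 2 in A954 had a *GAS6* read. The medians over cells were 1185 rpm in NCs and 33.5 rpm in other cells. Of the 310 NCs, 258 lay above the upper quartile of the other cells. Within a cell, *GAS6* had more reads than *MGP* in 87.1% of NCs (82.8 to 90.6%) and in 3.44% of other cells (2.97 to 3.97%).

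Both genes of the pyrophosphate arm were lower in NCs. *ENPP1*, the ectoenzyme that makes pyrophosphate from ATP, was at 25.4 rpm in NCs and 141 rpm in other cells, 5.54-fold lower (log2 ratio -2.47, or -1.66 with the added *KRT19* and *TBXT* reads). In NCs it was 15.5 rpm in A951, 26.5 in A952, 49.4 in A953 and 72.3 in A954. In other cells it was 152, 135, 121 and 150 rpm in the same order, the narrowest range over tags of the 8 genes. At least 5 reads were found in 14.8% of NCs and 49.6% of other cells.

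*ANKH*, the membrane exporter, was at 116 rpm in NCs and 867 rpm in other cells, 7.49-fold lower (log2 ratio -2.90). The log2 ratio was -1.66 without A952 and -1.72 with *KRT19* and *TBXT* reads added together to choose NCs. In NCs it was 157 rpm in A951, 67.5 in A952, 996 in A953 and 7.61 in A954. In other cells it was 754, 681, 1203 and 768 rpm in the same order. As for *MGP*, the 5 NCs of A953 were the exception and the other cells of A953 were the highest of the 4 tags. The median over cells was 24.9 rpm in NCs, at 4.62% of the other-cell median of 538 rpm, which lies above the shares given for *COL2A1*, *BGN*, *CHAD* and *DCN*. Of the 310 NCs, 274 lay below the lower quartile of the other cells.

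The phosphatases were rare in both classes. *ALPL*, tissue-nonspecific alkaline phosphatase, was at 0.681 rpm in NCs and 4.27 rpm in other cells. A read was found in 9.68% of NCs and 10.2% of other cells, and 5 or more in 2 NCs (0.645%, 0.078 to 2.31%) and 37 other cells (0.692%, 0.488 to 0.953%). *PHOSPHO1*, which frees phosphate from phosphocholine inside matrix vesicles, was at 5.77 rpm in NCs and 14.5 rpm in other cells, with a read in 8.06% and 11.6%. Of *PHOSPHO1*, 5 or more reads were found in 5 NCs (1.61%, 0.526 to 3.72%) and 195 other cells (3.65%, 3.16 to 4.19%). The share of other cells with a read was 10.4% for *PTPRC*, a leukocyte gene that these cells should lack. The share of *ALPL* was no higher than that and was not taken as expression, and cells with 5 or more reads were used below.

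*SPP1* (osteopontin), which in its phosphorylated form binds mineral and slows its growth, was higher in NCs. The pooled level was 3380 rpm in NCs and 798 rpm in other cells, 4.23-fold higher (log2 ratio 2.08, or 1.11 without A952). In NCs it was 1858 rpm in A951, 3860 in A952, 994 in A953 and 913 in A954. In other cells it was 1008, 857, 566 and 842 rpm in the same order. NCs were above other cells in each tag, but past 2-fold only in A952 (4.51-fold, against 1.84-fold in A951, 1.76-fold in A953 and 1.08-fold in A954). In A953 and A954 this rests on 5 and 2 NCs.

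The classes differed more in how *SPP1* was spread over cells than the pooled levels show. The median over cells was 990 rpm in NCs (quartiles 166 and 3269) and 18.3 rpm in other cells (quartiles 10.4 and 29.6). The tags differed widely in this: the NC median was 62.4 rpm in A951 against 18.3 rpm in other cells (3.41-fold), and 1613 rpm in A952, 89.7-fold above its other cells. In the other cells, 1% of the cells held 59.4% of the *SPP1* reads, and 336 cells exceeded 1000 rpm. Of the 54 other cells with the highest *SPP1* level, none had 5 or more reads of the macrophage genes *PTPRC*, *CSF1R*, *CD14* or *AIF1*, and 4 had 5 or more of *CD68*. Of the remaining 5289 other cells, 4, 2, 68 and 1 had them in the same order, and 464 had them of *CD68*. With so few in the rest, 0 of 54 does not set these cells apart. Within a cell, *SPP1* had more reads than *MGP* in 76.1% of NCs (71.0 to 80.8%) and 4.90% of other cells (4.34 to 5.52%). In NCs this share was 49.3% (36.8 to 61.8%) in A951 and 85.2% (80.0 to 89.4%) in A952. The pooled *MGP* of these NCs also differed (340 and 167 rpm), while their *MGP* medians over cells were close (58.5 and 50.6 rpm).

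**Figure D2:**
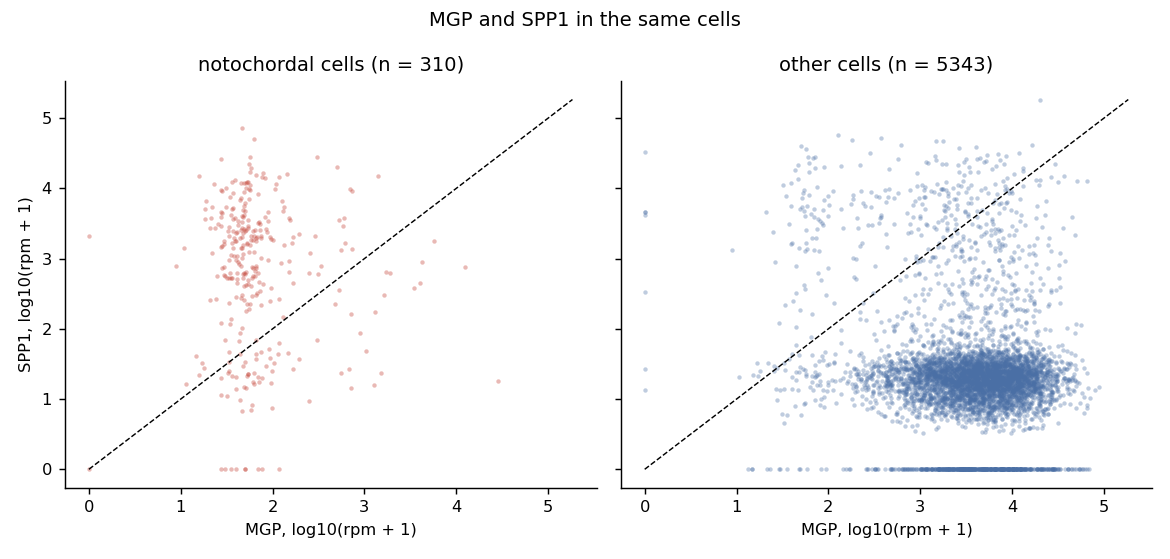
*MGP* (horizontal) and *SPP1* (vertical) in the same cells, as log10(rpm + 1), for NCs (left) and other cells (right). Each point is a cell and the dashed line marks equal rpm of both genes. NCs form a column near 52.2 rpm of *MGP* that spans the whole range of *SPP1*, and most other cells form a band near 18.3 rpm of *SPP1* with *MGP* spread around 4388 rpm.

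*IBSP* (bone sialoprotein), which can nucleate mineral, was at 0.575 rpm in NCs (Poisson interval 0.407 to 0.789) and 30.0 rpm in other cells (29.7 to 30.3). Reads of *IBSP* were held by few cells: 5 or more were found in 1 NC (0.323%, 0.008 to 1.78%) and 57 other cells (1.07%, 0.809 to 1.38%), and 1 cell held 41.8% of the reads in other cells. In other cells the pooled level was 7.35 rpm in A951, 31.5 in A952, 18.3 in A953 and 44.3 in A954. The pooled levels thus lay far apart while the shares of cells overlapped in their intervals.

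Counted together, 2 of the 8 genes were past 2-fold higher in NCs (*GAS6* and *SPP1*) and 6 past 2-fold lower. Among all genes counted, 24.8% were past 2-fold higher and 13.5% past 2-fold lower. The median log2 ratio of the 8 was -2.56 against 0.29 over all genes. Within A951, 1 was higher and 6 were lower, where all genes gave 26.6% and 22.2%. Within A952, 2 were higher and 6 lower, where all genes gave 25.3% and 15.0%. *MGP* stood at percentile 2.04 of all genes and *IBSP* at percentile 0.211. For *IBSP*, *ALPL* and *PHOSPHO1* few cells held the reads. Without the top 1% of cells the ratio was -0.27 for *IBSP*, -0.19 for *ALPL* and -3.44 for *PHOSPHO1*. *PHOSPHO1* was under 2-fold without A952 (-0.63), after thinning to 50000 reads (-0.98) and in mean rpm over cells (-0.996). In mean log2(rpm + 1) over cells, *PHOSPHO1* (-0.17), *ALPL* (-0.03) and *IBSP* (-0.04) were under 2-fold. With *KRT19* and *TBXT* reads added together to choose NCs, *ALPL* (-0.60) and *IBSP* (-0.43) were under 2-fold, and 6 of the 8 genes passed it.

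**Figure D3:**
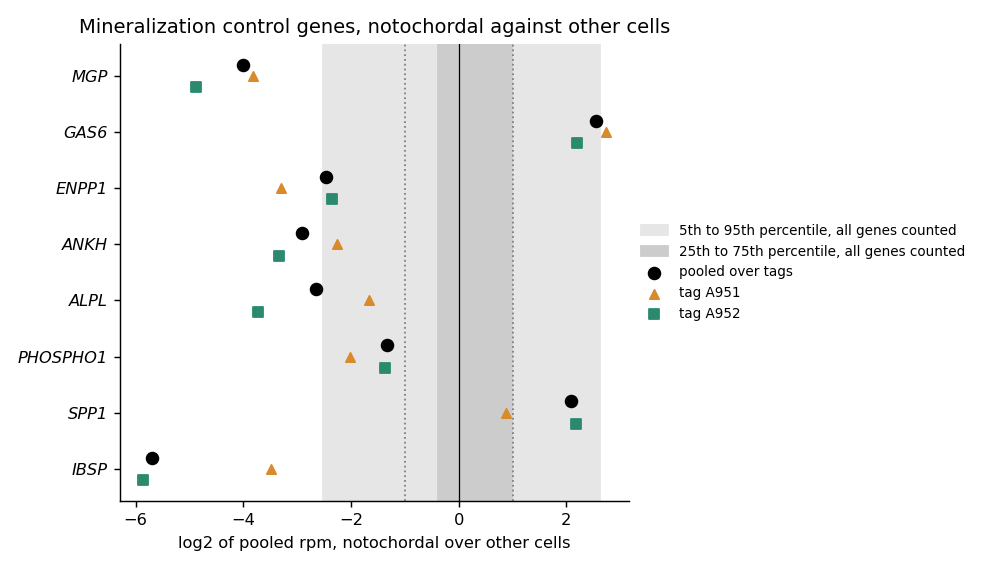
Log2 ratio of pooled rpm, NCs over other cells, for the 8 genes, over all tags (black circles) and within tags A951 (orange triangles) and A952 (green squares). The grey bands span the 5th to 95th percentile (-2.52 to 2.62) and the 25th to 75th percentile (-0.39 to 1.00) of all 10926 genes, and dotted lines mark 2-fold. 6 genes lie left of the lower 2-fold line in all 3 sets, and *GAS6* lies right of the upper line in all 3.

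Other genes of these pathways were read from lists. Of 12 genes of pyrophosphate and phosphate handling, none was past 2-fold higher and 6 were past 2-fold lower in NCs, where all genes gave 24.8% and 13.5%, the shares against which each list below is read. *NT5E*, the ectonucleotidase that turns AMP into adenosine, was at 15.0 rpm in NCs and 119 rpm in other cells, and *ENPP2* (autotaxin) at 23.8 and 157 rpm. The phosphate importer *SLC20A1* (663 against 345 rpm) and annexin A5 (*ANXA5*, 1383 against 916 rpm) were higher in NCs without reaching 2-fold. *SLC20A1* was past 2-fold within A952 (log2 ratio 1.05) and not within A951 (0.14).

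Of 8 counted genes of the vitamin K cycle and the Gla proteins, 2 were past 2-fold higher, a share like that of all genes (24.8%), and 3 past 2-fold lower (all genes, 13.5%). The carboxylase *GGCX*, which activates MGP and GAS6, was at 55.4 rpm in NCs and 33.5 rpm in other cells, and protein S (*PROS1*), also a TAM ligand, at 196 and 69.8 rpm. *UCMA*, a Gla-rich protein of cartilage, was at 0.575 and 39.0 rpm, 67.8-fold lower in NCs, and *NQO1* at 19.3 and 32.9 rpm, although *NQO1* ran the other way within A951 (log2 ratio 0.37) and A952 (0.78). Of the GAS6 receptors, *AXL* was at 47.8 rpm in NCs and 13.4 rpm in other cells, *TYRO3* at 13.3 and 16.3 rpm and *MERTK* at 0.651 and 3.71 rpm. *TYRO3* was past 2-fold lower in NCs within A951 (log2 ratio -3.31) and not within A952 (-0.92). Ligand and receptor were thus both higher in NCs for *GAS6* and *AXL*, although for *AXL* past 2-fold within A952 (log2 ratio 2.06) and not within A951 (0.64).

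Of 7 counted genes for SIBLING proteins and their receptors, 1 was higher and 2 were lower (all genes, 24.8% and 13.5%). *CD44*, a receptor of osteopontin and hyaluronan, was at 672 rpm in NCs and 163 rpm in other cells, while the integrins *ITGB1* (626 and 708 rpm), *ITGAV* (344 and 333 rpm) and *ITGB5* (227 and 177 rpm) differed by less than 2-fold. Of 6 counted genes for other inhibitors and mineral binders, none was higher and 5 were lower (all genes, 24.8% and 13.5%), among them *SPARC* (3821 against 19590 rpm), *CLU* (3415 against 9724 rpm) and *CHI3L1* (16.8 against 302 rpm). *TNFRSF11B* (osteoprotegerin), at 147 and 201 rpm, was not past 2-fold. Of 9 counted BMP genes, whose ligands MGP binds, 1 was higher and 7 were lower (all genes, 24.8% and 13.5%). Within A951, 0 were higher and 6 lower (all genes, 26.6% and 22.2%), and within A952, 0 and 5 (all genes, 25.3% and 15.0%). *BMP2* was at 26.2 rpm in NCs and 717 rpm in other cells, *BMPR2* at 41.9 and 151 rpm, *BMP6* at 10.1 and 116 rpm and *ACVR1* at 15.4 and 51.9 rpm.

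Of 11 counted regulators of osteoblasts and hypertrophy, 4 were higher and 4 lower (all genes, 24.8% and 13.5%), with 1 higher and 5 lower within A951 (all genes, 26.6% and 22.2%) and 4 and 5 within A952 (all genes, 25.3% and 15.0%). *SOX9* was at 1120 rpm in NCs and 346 rpm in other cells, past 2-fold within A952 (log2 ratio 1.97) and not within A951 (0.40). *COL1A1* was at 10.8 and 579 rpm, *COL1A2* at 852 and 884 rpm and *PTH1R* at 84.2 and 112 rpm. The osteoblast factor *SP7* was at 0.169 rpm in other cells, with 5 or more reads in 2 cells. *RUNX2* had opposite directions in the tags (log2 ratio -1.26 in A951 and 1.33 in A952). Of 8 counted matrix genes, 1 was higher and 5 were lower (all genes, 24.8% and 13.5%), so *MGP* was not alone among cartilage transcripts in its low NC level.

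A few other cells had as little *MGP* as NCs. After these values had been seen, the 136 other cells (2.55%) whose *MGP* level was at or under the upper quartile of NCs, 85.5 rpm, were set apart. They made up 2.37% of other cells in A951, 5.40% in A952, 0.875% in A953 and 2.51% in A954, so they were most frequent in A952, the tag with the most NCs. Of the 136, 39 belonged to the cells between the classes by *KRT19* and *TBXT*. The remaining 97 had a median *MGP* of 48.0 rpm (NCs, 52.2 rpm), a low value that the limit of 85.5 rpm itself set. Their cartilage transcripts, however, were those of the other cells: the medians were 27784 rpm for *COL2A1*, 13130 for *BGN*, 8046 for *CHAD* and 4135 for *DCN*, whereas NCs had 415, 284, 131 and 99.7 rpm. Low *MGP* thus went with low levels of these 4 transcripts in NCs and not in these cells. Their median *ANKH* was 463 rpm, near the 549 rpm of the 5207 cells with more *MGP*. The *SPP1* median was 24.5 rpm in the 97, 18.1 rpm in the 5207 and 990 rpm in NCs. For *GAS6* it was 8.25, 34.5 and 1185 rpm in the same order. *SPP1* exceeded 1000 rpm in 25 of the 97, against 285 (5.47%) of the 5207, which still held 55 cells between the classes. Cells with low *MGP* were shallower (a median of 141986 reads for the 136 against 200575).

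The 4 tags differed in the other cells as well. From the highest to the lowest tag, 4 of the 8 genes differed by 2-fold or more, while 17.8% of all genes did. *MGP* differed by 2.22-fold, with A953 highest, and *PHOSPHO1* by 2.09-fold, with A951 highest. *ALPL* differed by 3.82-fold and *IBSP* by 6.03-fold. Single cells held much of both: in A952, 1 cell held 66.6% of the *ALPL* reads, and in A954, 1 cell held 64.0% of the *IBSP* reads. *ENPP1* (1.25-fold), *GAS6* (1.53-fold) and *ANKH* (1.76-fold) stayed under 2-fold. *SPP1* differed by 1.78-fold in pooled rpm, with A951 highest, but by 2.28-fold in mean rpm over cells, 2.13-fold after thinning and 2.13-fold without the top 1% of cells, with A952 highest in each. *PHOSPHO1* was at 1.79-fold in mean rpm over cells, 2.00-fold after thinning and 3.17-fold without the top 1% of cells. Without the top 1% of cells *ALPL* was at 1.36-fold, and *IBSP* was still at 3.16-fold, with A952 highest and A954 lowest. The median *MGP* per cell was 3340 rpm in A951, 3135 in A952, 7938 in A953 and 4153 in A954, so A953 was highest by this measure too. A tag may stand for a tissue, an animal or a handling step, and these cannot be told apart here.

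Cells with 5 or more *IBSP*, *ALPL* or *PHOSPHO1* reads overlapped. Of the 57 other cells with *IBSP*, 42.1% (24 cells, 29.1 to 55.9%) also had 5 or more reads of *PHOSPHO1* and 22.8% (13 cells, 12.7 to 35.8%) of *ALPL*. Since these cells were deeper, they were set against the 2447 remaining other cells with at least 210800 reads, the lower quartile of the *IBSP* cells. There the shares were 5.19% (4.34 to 6.14%) for *PHOSPHO1* and 0.695% (0.405 to 1.11%) for *ALPL*, at median depths of 324850 and 316958 reads. The *IBSP* cells came from every tag (9 in A951, 14 in A952, 20 in A953 and 14 in A954), and cells with both *IBSP* and *PHOSPHO1* did too (4, 5, 6 and 9). Of all other cells, 8 had 5 or more reads of all 3 genes.

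Bone genes were read in the *IBSP* cells unevenly. Osteocalcin (*BGLAP*) had 5 or more reads in 40.4% (27.6 to 54.2%) of them and in 4.45% of the cells of like depth, *MEPE* in 17.5% and 1.31%, and *RUNX2* in 15.8% and 2.17%. *PHEX* was found in 14.0% (6.26 to 25.8%) and 3.92%, while the interval of *DMP1* (7.02%, lower bound 1.95%) included the 2.08% of the cells of like depth. *SOST*, an osteocyte gene, was found in 1 of the 57 cells (1.75%) and in 5.30% of all remaining other cells. *SP7*, which osteoblasts need, was found at that level in 0 of the 57 cells, as was the hypertrophy gene *COL10A1*. For 57 cells, 3 counts would be a share of 5.26% and the exact upper limit is 6.27%. In the cells of like depth the shares were 0.041% for *SP7* and 2.00% for *COL10A1*, too low for 0 of 57 to show a difference. *COL1A1* was found in 36.8% (24.4 to 50.7%) against 33.3%. The cartilage gene *CNMD* (chondromodulin) was found in 89.5% of the *IBSP* cells and in 27.0% of the others, *FGFBP2* in 84.2% and 16.4% and the cytokine gene *IL17B* in 70.2% and 4.25%. However, *FGFBP2* and *IL17B* were among the genes most like *IBSP* over these same cells, and *CNMD* among those most like *PHOSPHO1*. Chosen after these values were seen, their excess adds nothing beyond that likeness. All 57 had 5 or more reads of *MGP*, as had 2446 of the 2447, with a median of 3919 rpm in the *IBSP* cells, and 71.9% had them of *ENPP1* against 65.3%. *BGLAP*, *PHOSPHO1* and *ALPL* were thus more frequent than in the cells of like depth, yet each was below 5 reads in most *IBSP* cells. In contrast, *GAS6* was found in fewer of them (43.9%, 30.7 to 57.6%) than in the cells of like depth (63.8%).

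**Figure D4:**
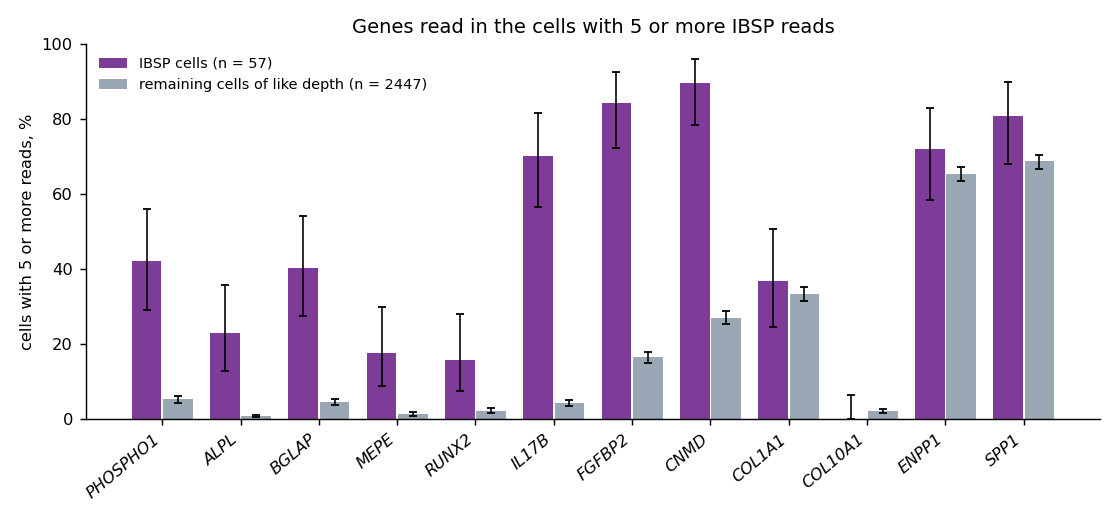
Share of cells with 5 or more reads of each named gene, in percent, among the 57 other cells with 5 or more *IBSP* reads (purple) and the 2447 remaining other cells of like depth (grey). Error bars are 95% Clopper-Pearson intervals over cells of 1 library. *PHOSPHO1*, *ALPL*, *BGLAP*, *MEPE*, *RUNX2*, *IL17B*, *FGFBP2* and *CNMD* stand higher in the *IBSP* cells, and *COL1A1* and *ENPP1* overlap. *IL17B*, *FGFBP2* and *CNMD* were chosen after the values were seen and were among the genes most like *IBSP* or *PHOSPHO1* over the same cells. *COL10A1* was found in 0 of the 57 and in 2.00% of the cells of like depth.

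Subsets of the other cells were formed with genes outside the 8. In the 885 cells with 5 or more reads of both *ASPN* and *CILP*, matrix genes of cartilage, *MGP* was at 10606 rpm against 5911 rpm in the rest (log2 ratio 0.84, 0.66 to 0.80 within tags). The medians per cell were 8905 and 3834 rpm. *SPP1* was past 2-fold lower there (425 against 912 rpm, while 5.14% of all genes were lower), although 5 or more of its reads were found in more of these cells (59.2%, 55.9 to 62.5%, against 41.0%, 39.6 to 42.5%). *IBSP* was past 2-fold higher (62.2 against 20.1 rpm, while 1.70% were higher), although the *IBSP* ratio turned its direction between tags (-5.82 to 2.76) and cells with 5 or more of its reads made up 0.452% (0.123 to 1.15%) against 1.19%. *GAS6* was at 144 against 262 rpm. These cells made up 6.36% of other cells in A951, 5.96% in A952, 21.4% in A953 and 22.3% in A954, and they were deeper than the rest (a median of 289482 against 186912 reads).

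Cells with *SLC14A1*, a urea transporter, were higher in several of the 8 genes. In the 287 cells with 5 or more of its reads, *SPP1*, *IBSP*, *ALPL* and *PHOSPHO1* were past 2-fold higher, while 3.58% of all genes were. *SPP1* was at 2463 against 689 rpm (log2 ratio 1.84, 0.96 to 2.67 within tags) and *PHOSPHO1* at 40.6 against 12.7 rpm (1.67, 0.17 to 2.57 within tags). *IBSP* (352 against 8.80 rpm) and *ALPL* (27.1 against 2.77 rpm) turned their direction between tags. The shares of cells, which single cells cannot set, also differed. At least 5 *IBSP* reads were found in 6.27% (3.76 to 9.73%) of the cells with *SLC14A1* and 0.771% (0.549 to 1.05%) of the rest, *PHOSPHO1* in 9.06% (6.00 to 13.0%) and 3.34% (2.86 to 3.88%), and *ALPL* in 2.79% (1.21 to 5.42%) and 0.574% (0.384 to 0.823%). Most cells with these genes still lay outside, since 18 of the 57 *IBSP* cells, 8 of the 37 *ALPL* cells and 26 of the 195 *PHOSPHO1* cells had *SLC14A1*. *MGP* was lower in these cells (4216 against 7192 rpm, log2 ratio -0.77, -1.02 to -0.28 within tags). Median depths were 229964 and 196903 reads.

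In the 72 cells with 5 or more reads of *COL10A1*, the collagen of hypertrophic chondrocytes, 5 of the 8 genes were past 2-fold lower, while 16.4% of all genes were. *ENPP1* was at 65.3 against 142 rpm and *SPP1* at 284 against 808 rpm, although 5 or more *SPP1* reads were found in 58.3% (46.1 to 69.8%) of these cells and 43.8% of the rest. By comparison, *MGP* (6555 against 7017 rpm), *ANKH* (900 against 866 rpm) and *GAS6* (235 against 234 rpm) were near the rest. Over all other cells, those with 5 or more *SPP1* reads were deeper than those without (medians of 296220 and 151156 reads). The *SPP1* shares of the subsets were not compared at equal depth. The other genes past 2-fold, *IBSP*, *ALPL* and *PHOSPHO1*, could not be compared at this number of cells: 5 or more reads of *IBSP* and *ALPL* were found in 0 of the 72 (3 counts would be 4.17%, and the exact upper limit is 4.99%), and *PHOSPHO1* in 3 (4.17%, 0.868 to 11.7%, against 3.64%). In the 298 cells with *SFRP2*, a Wnt modulator, *SPP1*, *IBSP*, *ALPL* and *PHOSPHO1* were past 2-fold lower, while 8.30% of all genes were. Of these, *PHOSPHO1* also differed in its share of cells (1.01%, 0.208 to 2.91%, against 3.81%, 3.29 to 4.37%), whereas *SPP1* was at 218 against 837 rpm with 5 or more reads in 47.0% (41.2 to 52.8%) of these cells and 43.8% of the rest.

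In the 148 cells with the chemokine *CXCL1*, *IBSP*, *ALPL* and *PHOSPHO1* were past 2-fold lower, while 15.2% of all genes were, and in the 1182 cells with the hedgehog transducer *SMO*, *IBSP* and *ALPL* were, while 1.67% of all genes were. For each of these genes, the intervals of the share of cells with 5 or more reads overlapped in both comparisons. At least 5 *SPP1* reads were found in 60.8% (52.5 to 68.7%) of the *CXCL1* cells and 43.5% (42.2 to 44.9%) of the rest. The *SPP1* level was not higher there, at 430 against 812 rpm pooled (log2 ratio -0.92, -4.55 to 0.39 within tags). Its medians per cell were 17.5 and 18.3 rpm. The *CXCL1* cells were also deeper (medians of 277112 and 197463 reads). In the 1964 cells with *HMOX1*, heme oxygenase, none of the 8 passed 2-fold, while 0.613% of all genes were higher and 0.879% lower. At least 5 reads were found in more of the *HMOX1* cells for *PHOSPHO1* (4.74%, 3.84 to 5.77%, against 3.02%, 2.47 to 3.65%) and *SPP1* (55.1% against 37.6%). The same held in the *SMO* cells for *PHOSPHO1* (5.08%, 3.90 to 6.49%, against 3.24%, 2.73 to 3.83%) and *SPP1* (53.2% against 41.4%). The chosen cells were deeper in both (medians of 249518 against 175139 reads for *HMOX1* and 248704 against 187198 for *SMO*), and these shares were not compared at equal depth. In the 1336 cells above the upper quartile of *BMP2*, *MGP* was at 5341 against 7562 rpm (log2 ratio -0.50, -0.67 to -0.14 within tags). *ALPL* was there past 2-fold higher (7.17 against 3.31 rpm, while 0.613% of all genes were), but its ratio turned between tags (-2.53 to 4.53), and cells with 5 or more of its reads made up 0.749% against 0.674%.

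Within the NCs, the 72 cells with 5 or more reads of *SHH*, a hedgehog ligand, had more *SPP1*. The median per cell was 2479 rpm with *SHH* and 697 rpm in the other 238 NCs. In A952 it was 2582 rpm in 62 cells against 1111 rpm in 174, and in A951 it was 893 rpm in 9 cells against 46.7 rpm in 58. The pooled levels lay closer together, at 5235 against 2660 rpm over all NCs, 5721 against 3000 rpm in A952 and 2431 against 1784 rpm in A951. The *MGP* median differed little (50.9 and 52.8 rpm), but its pooled level was 259 rpm with *SHH* and 507 rpm without (log2 ratio -0.97, or -0.61 within A952). *GAS6* differed little, with medians of 1317 and 1182 rpm and pooled levels of 1368 and 1380 rpm. *PHOSPHO1* was the only gene of the 8 past 2-fold lower with *SHH* (0.433 against 7.84 rpm, where 16.6% of all genes were), and 1 NC held 54.1% of the *PHOSPHO1* reads of all NCs. Cells with *SHH* were deeper (a median of 226388 against 173339 reads).

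**Figure D5:**
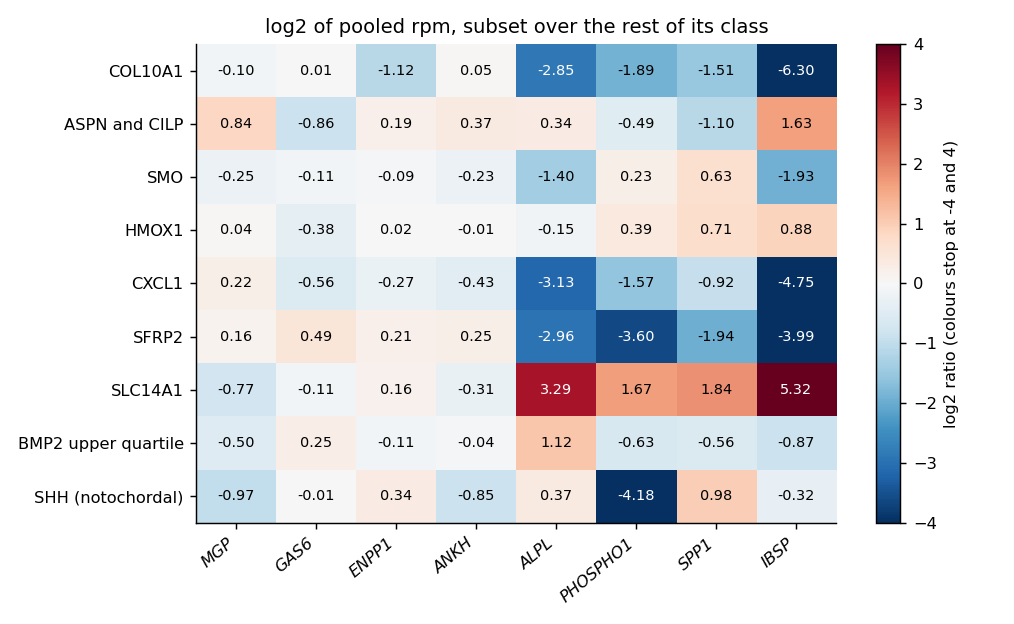
Log2 ratio of pooled rpm for each of the 8 genes (columns) in cells chosen by another gene (rows) over the rest of the same class, in other cells (upper 8 rows) and in NCs (*SHH*). Red is higher and blue lower in the chosen cells, with colours ending at -4 and 4. *MGP*, *ANKH* and *GAS6* stay within 1 of 0 throughout, and *IBSP*, *ALPL*, *PHOSPHO1* and *SPP1* vary most.

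Genes whose level followed *MGP* over the other cells were sought within each tag by Spearman's rho of rpm, averaged over the 4 tags, among 9307 genes. The points are cells of 1 library that share depth and composition, so the values are a description. The 5 genes most like *MGP* were *COX3* (mean rho 0.34), *CLU* (0.34), *CRTAC1* (0.29), *PRG4* (0.27) and *ND3* (0.26). After thinning to 50000 reads, 3 of these 5 were kept, and *CRTAC1* ran from 0.10 in A951 to 0.51 in A953. The 5 most unlike were *COL2A1* (-0.37), *ACAN* (-0.35), *SERPINE2* (-0.30), *COL9A1* (-0.30) and *COL11A1* (-0.30). The 5th to 95th percentile over all genes was -0.06 to 0.07. *COX3* and *ND3* are mitochondrial genes, the kind of reads that the quality limits use. *PRG4* (lubricin) is known as a gene of the cartilage surface, but 5328 of the 5343 other cells had 5 or more of its reads. *COL2A1*, *ACAN*, *COL9A1* and *COL11A1* are the main structural genes of hyaline cartilage. The tags were not alike: rho with *COL2A1* was -0.23 in A951, -0.06 in A952, -0.60 in A953 and -0.59 in A954.

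Among themselves the 8 genes were only weakly related over other cells. The highest mean rho was 0.17, between *ENPP1* and *ANKH* (0.19 in A951, 0.17 in A952, 0.14 in A953 and 0.18 in A954). *IBSP* with *PHOSPHO1* gave 0.11, *MGP* with *ANKH* 0.11 and *MGP* with *GAS6* 0.00. *PHOSPHO1* was most like *FGFBP2* (0.23), *CNMD* (0.20) and *CCDC80* (0.19), and *IBSP* was most like *FGFBP2* (0.13), *IL17B* (0.13) and *CCDC80* (0.12), so *FGFBP2* and *CCDC80* stood near both. *ENPP1* was most like the cartilage lectin *CLEC3A* (0.19), *ANKH* (0.17) and *CCN2* (0.17). *ANKH* was most like *UGP2* (0.23), which makes the sugar nucleotide that glycosaminoglycan synthesis starts from, then *CDON* (0.19) and *TSC22D1* (0.18). *GAS6* was most like *SMOC1* (0.19), *SERPING1* (0.18) and *APOD* (0.18). *SPP1* was most like *SLC44A2*, *CNMD* and *ACTB* (up to 0.15), and *ALPL* most like *SLC35B1*, *UNC80* and *SHC1* (up to 0.10).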

How the data were processed

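Reads were mapped by the authors with HISAT2 2.2.1 to a *Macaca fascicularis* genome and given to whole genes, by strand, with featureCounts 2.0.2. The deposited values are raw read counts of each gene in each cell, without molecular identifiers. The tag library holds no gene expression, and 1358 cell columns of a second matrix that no label names were not used. Cells with a single tag, 200 to 9000 genes and under 5% mitochondrial reads (13 genes) were kept (5653 of 5723), and 42 doublets, 7 untagged cells and 21 cells outside the limits were left out. No further doublet caller was run. No bead number was shared between tags. Pooled rpm and its log2 ratio were obtained with pandas 2.3.3, scipy 1.17.1 and numpy 2.4.6 (Python 3.11.15), with totals under 3 reads set to 3. To compare shares at equal depth, cells were thinned to 50000 reads. The spread between tags was also computed from mean rpm over cells, after thinning and without the top 1% of cells. The ratio was tested on simulated data. As tags could not be paired with animals, no test between groups was run. The 8 genes, pathway lists and subsets, and the rule to name the 8 genes, up to 4 genes a list by overall rpm and the genes most like each, were chosen with earlier results of these data known. The genes set beside *IBSP* cells and the cells with low *MGP* were chosen after their values were seen. The subset by *PRG4* held 5328 of 5343 other cells and is not reported. Gene sequences were not used here.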

Additional observations from a re-analysis of the deposited data

Results flagged for a closer look

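In other cells, tag A953 stood away from the remaining tags for *ANKH*, at 1203 rpm, which was 1 of 16 sets of 4 tags looked at, where chance marks about 1 in 20. Reads were also found outside the cells compared. The 42 cells marked as doublets held *MGP* at 4075 rpm, *ENPP1* at 165 rpm, *ANKH* at 919 rpm, *ALPL* at 1.84 rpm, *SPP1* at 937 rpm, *IBSP* at 0.491 rpm, *PHOSPHO1* at 38.8 rpm and *GAS6* at 173 rpm. The 7 cells without a tag held *MGP* at 10289 rpm, *ENPP1* at 168 rpm, *ANKH* at 970 rpm, *ALPL* at 5.88 rpm, *SPP1* at 286 rpm and *GAS6* at 438 rpm.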

How the results depend on the processing

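The direction of the NC ratio was the same in every alternative for *MGP*, *ENPP1*, *ANKH*, *SPP1* and *GAS6*, and a value is given here where it moved by more than the SD of the ratios in A951 and A952. With *KRT19* and *TBXT* reads added together to choose NCs, the log2 ratio was -1.82 for *MGP*, -1.66 for *ENPP1* and -1.72 for *ANKH*. With the mean of log2(rpm + 1) over cells it was -5.69 for *MGP*, -3.68 for *ANKH*, 4.76 for *SPP1* and 4.55 for *GAS6*, and 5 of the 8 genes passed 2-fold. Without the top 1% of cells *MGP* was at -5.05. Further values for *MGP*, chosen after seeing the data, were -5.00 without the 3 NCs highest in it and -6.39 from medians over cells. Leaving out each tag in turn, the ratio ranged from -4.85 to -2.41 for *MGP* (lowest without A953, highest without A952), from -3.15 to -1.66 for *ANKH*, from 1.11 to 2.29 for *SPP1*, from -2.71 to -2.33 for *ENPP1* and from 2.33 to 2.82 for *GAS6*, and 7 to 8 of the 8 genes passed 2-fold. After thinning to 50000 reads, 94.0% of 299 NCs and 99.8% of 5147 other cells had an *MGP* read, 29.1% and 57.8% an *ENPP1* read, 93.0% and 62.9% an *SPP1* read and 97.0% and 63.3% a *GAS6* read, with 11 and 196 shallower cells left out. No paired test was run, because tags carry no label that ties them to animals. Each tag held both NCs and other cells, and the ratios within tags are given as values. Tags A953 and A954 held 5 and 2 NCs, too few to describe NCs there. Reads are not molecules.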
